A study of Caenorhabditis elegans with 33 samples.

Results

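The second generation of wild-type N2 *Caenorhabditis elegans* raised under chronic gamma radiation (F1 exposed) was compared with animals of the same generation that had no irradiation in their line (F1 control). The libraries were taken from the sample titles, 3 of each group, 6 of the 33 libraries of the study. F1 exposed animals received 50 mGy per h over 65 h of growth that began with synchronised embryos and ended in late larvae (L4) or young adults, as their F0 parents had before them. F1 recovery animals, 3 further libraries used here beside the 6, had irradiated F0 parents and were themselves raised without radiation. The study carried the exposed line on to F3, and 18 exposed and control libraries of F0, F2 and F3 enter below where the F1 response was set against theirs. All 33 libraries, F2 and F3 recovery included, share the estimate of the spread. All animals were of the same strain, kept at 19 °C, and RNA came from whole animals, so each value averages over germ line, gut, muscle, skin and nervous system. The libraries of a group are labelled as biological replicates, without a statement that each had its own irradiation, so p-values measure the spread between libraries.

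Gamma rays damage DNA directly and through the reactive oxygen species they form in water. In *C. elegans* the p53-like factor CEP-1 answers DNA breaks in the germ line by inducing *egl-1*, whose product starts apoptosis. Damaged proteins are met by chaperones under the heat shock factor HSF-1, and oxidants and foreign compounds by glutathione S-transferases, cytochrome P450 enzymes and UDP-glucuronosyltransferases. The gut is the main site of fat storage and of yolk synthesis.

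The 6 libraries held 28.1 to 40.6 M counts, which bounds the precision of genes near 1 CPM (counts scaled to library size). Ribosomal RNA genes took 3.51%, 3.88% and 5.12% of the counts in exposed replicates 1 to 3 and 6.86%, 12.7% and 7.29% in controls, with no overlap, and control replicate 2 stood farthest from the rest. Summed over 206 tested moulting genes, none at 0 in all 6 libraries, the level was 4080 to 4140 CPM in exposed and 3810 to 3860 CPM in control animals. Major sperm protein genes, 29 tested, summed to 3330 to 3370 CPM in exposed and 3740 to 4370 CPM in control animals, and muscle genes, 21 tested, to 10900 to 12200 and 8870 to 10600 CPM. Neuron genes, at 451 to 463 and 412 to 445 CPM, and pharynx and gland genes, at 333 to 347 and 295 to 314 CPM, were also higher in exposed animals. So were male genes, at 16.3 to 17.8 and 12.1 to 15.1 CPM, while early embryo genes were lower, at 302 to 318 and 324 to 333 CPM. Vitellogenin genes, which mark the adult gut, overlapped between the groups at 23000 to 24600 and 21000 to 23700 CPM. Collagen, other sperm, oocyte, histone, ribosomal protein, intestine and hypodermis sums overlapped as well. In bulk RNA, fewer cells of a type and less RNA per cell cannot be told apart. The part of the ribosomal share and of these tissue and stage markers in the results below was not tested apart from the fits that carry as a covariate the share or a cuticle score (log2 CPM averaged over moulting and collagen genes). In a principal component analysis of the 9 F1 libraries the first component, 24.5% of the variance, placed exposed libraries from -24.0 to -12.2, recovery libraries from -7.06 to 5.84 and controls from 13.7 to 27.8. The second component, 19.8%, set recovery libraries apart at -23.7 to -16.5, with exposed at 8.99 to 13.6 and controls at -2.76 to 19.3.

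The main comparison asked which transcripts irradiation of a second generation raised or lowered relative to control. Genes for chaperones, peroxisomal fat oxidation and fatty acid elongation were among those that rose, and genes for conjugation of foreign compounds moved in both directions. Genes of an intracellular pathogen response, the ferritin gene *ftn-1* and a vitamin B12 dependent enzyme gene were among those that fell. The *ftn-1* call did not survive the removal of any 1 library. With edgeR's quasi-likelihood test, 259 of 17627 genes were called at an adjusted p under 0.05, 1.47% of those tested. Of these 166 were higher (0.942%) and 93 lower (0.528%) in exposed animals. The changes were small: the median rise was 1.65-fold and the median fall 1.61-fold, with 40 rises and 13 falls over 2-fold. In 258 of the 259 the exposed and control libraries did not overlap, as was so in 23% of all genes tested (10.7% with exposed and 12.3% with control animals higher). Protein-coding genes made up 242 of the calls. Chromosome X held 38 of the rises and 5 of the falls among 2432 genes tested (1.77% called), and chromosome V 38 rises and 35 falls among 3649 (2.0%). On chromosomes I, II, III and IV the share called was 1.02%, 1.65%, 1.28% and 0.932%.

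**Figure D1:**
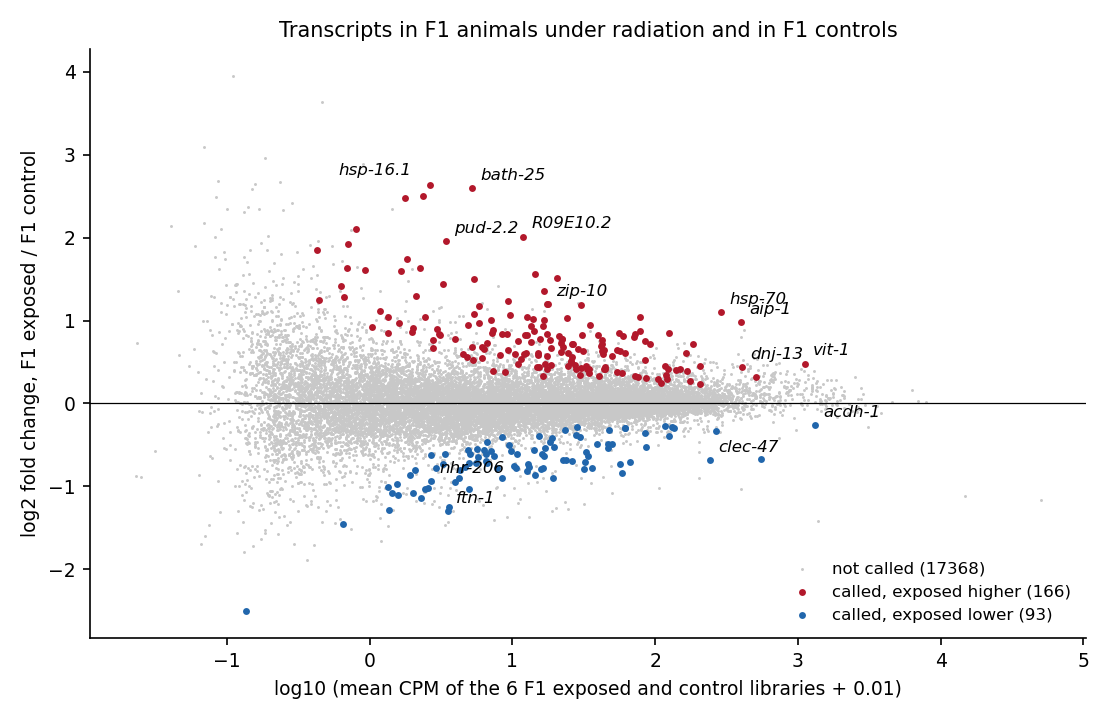
Mean level of each tested gene over the 6 F1 exposed and control libraries (x, log10 of CPM + 0.01) and its fitted log2 fold change (y). The 166 genes called higher (red) reach 6.19-fold at *hsp-16.1*, and the 93 called lower (blue) lie mostly within 2-fold; grey points were not called.

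How many genes were called depended on single libraries. Leaving out exposed replicate 1, 2 or 3 gave 119, 105 and 203 calls, and leaving out control replicate 1, 2 or 3 gave 122, 91 and 198. DESeq2 called 416 genes (2.56% of the 16260 it tested), and a fit of the 6 libraries alone called 572. Of 83 called genes named in the text, 30 lost their call in a fit that carried the ribosomal RNA share and 15 in a fit that carried the cuticle score. With the replicate number as a block 16 lost it, and without a filter on low counts 11. Most of the 30 are given with their group below, and the 16 are not given by gene. Among the 166 rises, exposed replicate 2 held the highest exposed level in 105 and control replicate 2 the lowest control level in 92. Of the 259 calls, 62 (23.9%) remained when any 1 of the 6 libraries was left out.

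The rise with the smallest p was in *R09E10.2*, a protein-coding gene on the minus strand of chromosome IV (WBcel235, bases 10317563 to 10318299). It was at 17.9, 19.7 and 19.8 CPM in the exposed libraries and at 5.40, 4.07 and 4.67 CPM in the controls. The recovery libraries, at 4.56, 4.73 and 5.24 CPM, lay among the controls, and every exposed library stood above them all. The rise was 4.03-fold over control (2.01 ± 0.18 SE on the log2 scale, edgeR adjusted p = 1.4e-07) and 3.96-fold over recovery (1.98 ± 0.18 SE on the log2 scale, edgeR adjusted p = 1.36e-07). It remained a call in every one of 15 alternative settings of each comparison. The gene *bath-25*, of the family with BTB and MATH domains, was at 8.01, 12 and 7.03 CPM in exposed and 2.11, 1.02 and 1.23 CPM in control animals, a 6.04-fold rise (2.60 ± 0.44 SE on the log2 scale, edgeR adjusted p = 0.00199). Recovery animals held 4.53, 3.21 and 2.06 CPM of it, between the other groups except for 1 library within the controls' range. It was the 1 rise among 79 tested MATH and BTB genes, of which 2 fell, one of them *btb-9* by 1.87-fold (edgeR adjusted p = 0.015), a call lost without exposed or control replicates 1 or 2 (adjusted p up to 0.143 over all alternatives, as wherever an upper value is given below).

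Of the 43 gene lists examined, heat shock genes had the largest share of rises. Of 38 tested, 9 rose and none fell (23.7% called), with a median log2 fold change of 0.315 against 0.003 over all genes tested, and 34 of the 38 lay above 0. The small heat shock gene *hsp-16.1* (WBGene00002015), which encodes an alpha-crystallin type holdase, was at 4.29, 5.40 and 4.03 CPM in exposed and 0.58, 0.49 and 1.12 CPM in control animals. It rose 6.19-fold (2.63 ± 0.50 SE on the log2 scale, edgeR adjusted p = 0.00452). Its neighbour *hsp-16.48* (WBGene00002020) was at 3.83, 3.71 and 4.38 CPM against 0.557, 0.716 and 0.839 CPM, a 5.67-fold rise (edgeR adjusted p = 0.00445). For both, recovery libraries lay at 0.694 to 1.25 CPM, close to the controls. Each has a near-identical second copy on chromosome V, so the split of reads between copies is uncertain: WBGene00002017 was at 1.44, 1.17 and 1.46 against 0.533, 0.942 and 0.699 CPM and WBGene00002019 at 2.42, 1.17 and 2.81 against 1.32, 1.32 and 0.727 CPM (edgeR adjusted p = 0.429 and 0.565).

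Of the HSP70 class, 3 stress-inducible genes rose. The stress-inducible gene *hsp-70* was at 364, 417 and 397 CPM in exposed, 252, 288 and 308 CPM in recovery and 132, 180 and 238 CPM in control animals, 3 groups in order and without overlap. Its rise over control was 2.14-fold (1.10 ± 0.27 SE on the log2 scale, edgeR adjusted p = 0.0387). A further pair of inducible HSP70 genes lies head to head on chromosome II. *F44E5.4* was at 23.4, 19.8 and 21.2 against 6.19, 6.33 and 9.26 CPM, a 2.95-fold rise (edgeR adjusted p = 0.00265), with recovery animals at 9.39, 13.1 and 12.3 CPM. Its partner *F44E5.5* rose 2.31-fold (edgeR adjusted p = 0.0483), and reads of the pair may be shared.

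The co-chaperones of HSP70 that rose were *dnj-13*, a J-domain protein gene, *unc-23*, which encodes a BAG-domain protein of muscle and skin, and *hsp-110*, of the HSP110 class. *unc-23* was at 96.4, 116 and 93.5 CPM in exposed and 55.4, 51.7 and 60.4 CPM in control animals, 1.82-fold higher (edgeR adjusted p = 0.00248), and its recovery libraries fell in a narrow band between, at 71.8, 70.8 and 72.3 CPM. *dnj-13* was at 458, 468 and 463 against 364, 310 and 353 CPM, 1.35-fold higher (edgeR adjusted p = 0.000769). *hsp-110* rose 1.24-fold and the small heat shock gene *hsp-43* 1.34-fold (edgeR adjusted p = 0.0197 and 0.0475).

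The small heat shock genes *hsp-16.2* and *hsp-16.41* missed the threshold with folds of 1.74 and 1.85 (edgeR adjusted p = 0.177 and 0.0726). *hsp-16.41* was at 524, 541 and 562 CPM in exposed and 233, 293 and 356 CPM in control animals, so its groups did not overlap. The constitutive chaperone genes *hsp-1* and *hsp-90* were 1.15-fold and 1.04-fold higher and *hsf-1*, for the factor itself, was at 77.9, 73.9 and 78.9 against 81.4, 75.3 and 74.6 CPM (edgeR adjusted p = 0.537, 0.814 and 0.987). Of the chaperones of the endoplasmic reticulum and mitochondria, *hsp-4*, *hsp-6* and *hsp-60* were 1.12-fold, 1.29-fold and 1.24-fold higher and were not called (edgeR adjusted p = 0.353, 0.094 and 0.207). The zinc finger gene *aip-1*, whose product works with the proteasome under arsenite, was at 503, 514 and 560 against 193, 281 and 327 CPM and rose 1.97-fold (edgeR adjusted p = 0.00661). The count of 9 heat shock calls was 5 without exposed replicate 1 or 2, without control replicate 1 or 2 and in the fit that carried the cuticle score, and 6 without exposed replicate 3. The calls of *hsp-70*, *F44E5.5*, *hsp-110* and *hsp-43* were the ones lost without any 1 of exposed replicates 1 to 3 or control replicates 1 and 2 (adjusted p up to 0.25), and *hsp-43* also without control replicate 3; *aip-1* lost its call without control replicate 1 (adjusted p = 0.0595).

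**Figure D2:**
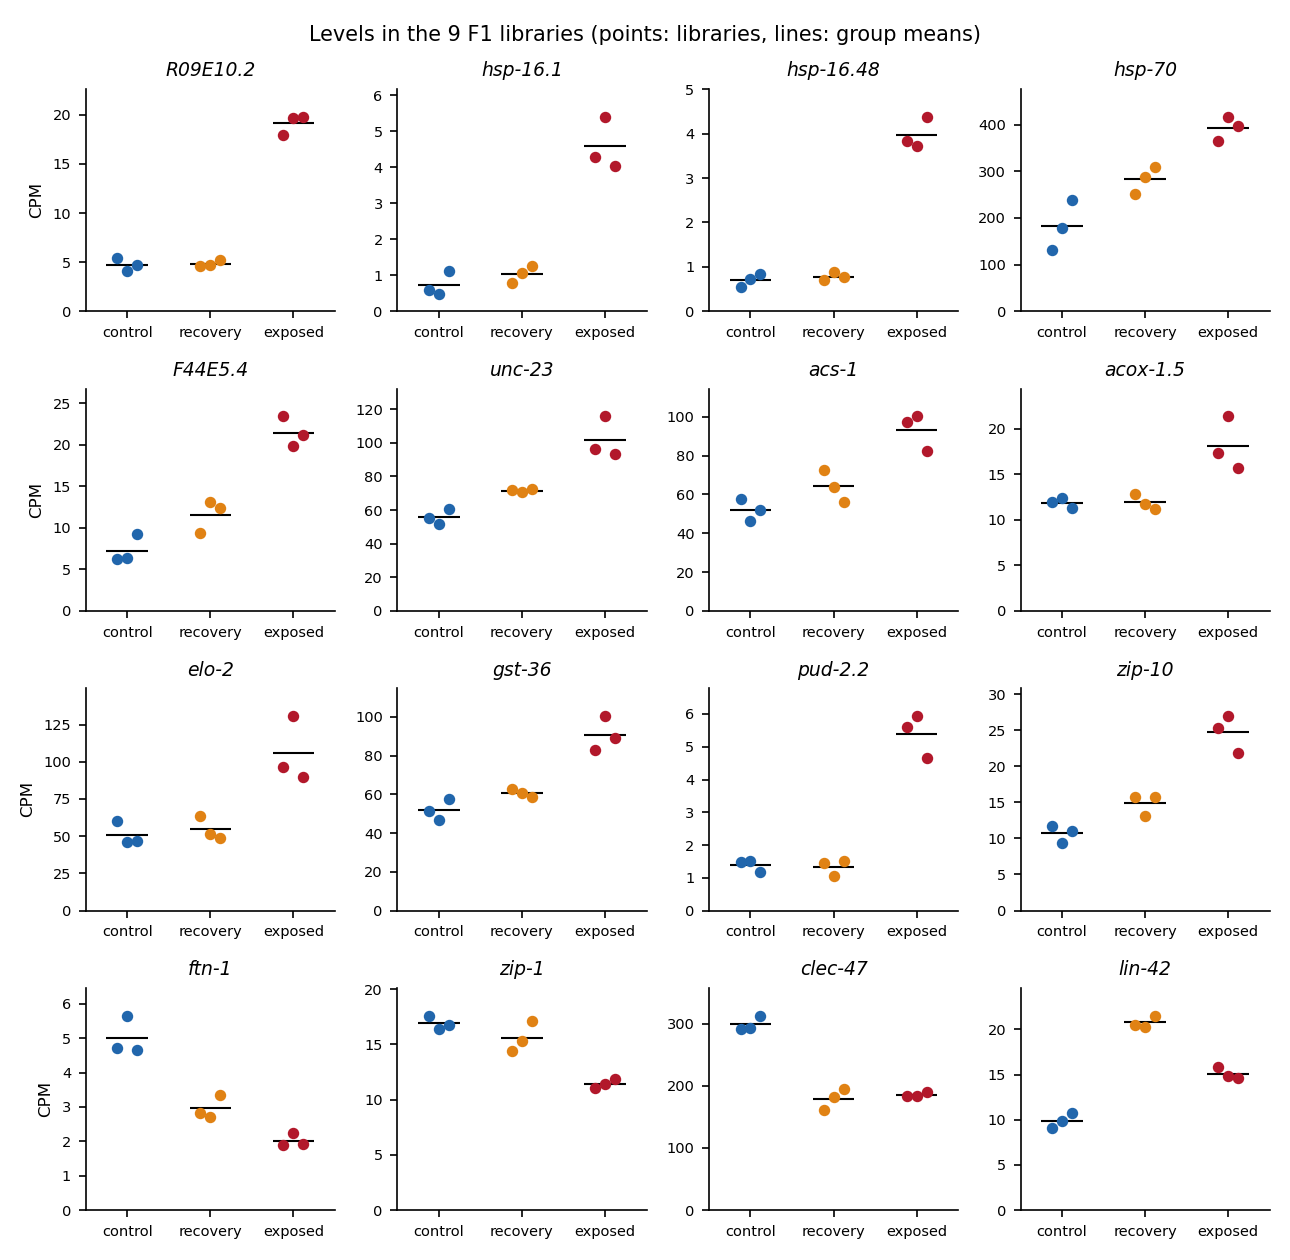
CPM (y, linear from 0) of 16 genes in each of the 3 control (blue), 3 recovery (orange) and 3 exposed (red) F1 libraries, with group means as lines. *R09E10.2*, *hsp-16.1*, *hsp-16.48*, *acox-1.5* and *pud-2.2* were near control level in recovery animals, *hsp-70*, *F44E5.4*, *unc-23* and *zip-10* were between, and *clec-47* was at the exposed level.

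Of 64 tested genes of fatty acid oxidation 5 rose and 1 fell (9.38% called), with a median log2 fold change of 0.04, and 12 were higher and 4 lower at an unadjusted p under 0.05; several of the called genes act in the peroxisome. The acyl-CoA synthetase gene *acs-1*, needed for branched-chain fatty acids, was at 97.1, 100 and 82.2 CPM in exposed and 57.5, 46.4 and 52.2 CPM in control animals. It rose 1.79-fold (0.84 ± 0.11 SE on the log2 scale, edgeR adjusted p = 0.00011). A second synthetase gene, *acs-14*, was at 49.5, 60.6 and 46.0 against 38.6, 32.1 and 32.8 CPM (1.51-fold, edgeR adjusted p = 0.00127). *acox-1.5*, for an acyl-CoA oxidase of the first step of peroxisomal beta-oxidation, was at 17.3, 21.4 and 15.7 against 12, 12.4 and 11.3 CPM (1.53-fold, edgeR adjusted p = 0.00259). Exposed replicate 2 was the highest of the 6 libraries for each of these 3 genes, and the groups did not overlap.

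Of the same pathway, *acox-1.2* rose 1.95-fold and *dhs-28*, for a peroxisomal dehydrogenase that also shortens the side chains of ascaroside pheromones, 1.23-fold (edgeR adjusted p = 0.00839 and 0.0481). *pmp-1*, a peroxisomal ABC transporter gene, was at 31.3, 38.5 and 29.4 CPM in exposed and 22.7, 19.9 and 17.7 CPM in control animals (1.64-fold, edgeR adjusted p = 0.000769), whereas *pmp-5*, of the same transporter family, fell 1.32-fold (edgeR adjusted p = 0.00853). The gene that fell on the oxidation list was *acdh-1*, a short-chain acyl-CoA dehydrogenase gene used as a sensor of low vitamin B12, at 1186, 1220 and 1190 against 1506, 1436 and 1383 CPM (1.20-fold, edgeR adjusted p = 0.047). *acox-1.2* lost its call without exposed replicate 2 or control replicate 1 (adjusted p up to 0.0798) and *pmp-5* without exposed replicate 2 or control replicates 1 or 2 (up to 0.0784). *dhs-28* kept its call without exposed replicate 3 and lost it without any other library (up to 0.342), and *acdh-1* was called in only 2 of 15 alternatives (up to 0.225). With DESeq2 size factors *acdh-1* was not called and the list held 6 rises and no fall. With the ribosomal RNA share as covariate *acox-1.2*, *pmp-5* and *acdh-1* were not called, and with the cuticle score *dhs-28* and *acdh-1*.

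Of 96 tested genes of fat synthesis and storage 4 rose and 1 fell (5.21% called; median log2 fold change -0.022). The elongase gene *elo-2*, which lengthens palmitic acid, was at 96.5, 131 and 89.6 CPM in exposed and 60.5, 46.2 and 46.6 CPM in control animals, with recovery animals at 63.4, 51.1 and 49 CPM. It rose 2.06-fold over control (1.05 ± 0.20 SE on the log2 scale, edgeR adjusted p = 0.00516). A second elongase gene, *elo-9*, was at 15.1, 14.7 and 11.2 against 8.09, 7.58 and 8.53 CPM (1.69-fold, edgeR adjusted p = 0.00469). The acyltransferase genes *acl-1* and *oac-31* rose 1.26-fold and 1.76-fold (edgeR adjusted p = 0.024 and 0.0231). *fat-5*, the desaturase gene that acts on palmitic acid, fell 1.81-fold, from 15.9, 24.7 and 15.4 to 12, 8.11 and 10.7 CPM (edgeR adjusted p = 0.0244). *elo-2* lost its call without exposed or control replicate 2 (adjusted p up to 0.0569), *fat-5* without exposed replicates 2 or 3 or control replicate 2 (up to 0.221), and *acl-1* and *oac-31* without exposed or control replicates 1 or 2 (up to 0.135), *acl-1* also without control replicate 3. The list's 4 rises were 1 without exposed or control replicate 2. *fat-5* was called with neither the ribosomal RNA share nor the cuticle score as covariate, *acl-1* not with the former and *oac-31* not with the latter.

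Among other lipid genes, chosen after their values were seen, *scp-1*, the homologue of the SREBP cleavage-activating protein that senses sterols, was at 108, 123 and 113 CPM in exposed and 72.3, 61.6 and 76.0 CPM in control animals (1.64-fold, edgeR adjusted p = 0.000127). *pcyt-1*, for the regulated enzyme of phosphatidylcholine synthesis, was at 48.1, 61.1 and 44.1 against 32.0, 30.0 and 33.1 CPM (1.61-fold, edgeR adjusted p = 0.000536). *fard-1*, for the fatty acyl-CoA reductase that makes the alcohols of ether lipids, was at 81.6, 62.1 and 64.8 against 48.5, 40.2 and 45.4 CPM (1.55-fold, edgeR adjusted p = 0.00284). For all 3 the lowest exposed library lay above the highest control. The yolk protein gene *vit-1* was at 1339, 1341 and 1208 against 966, 863 and 958 CPM and rose 1.40-fold (edgeR adjusted p = 0.00452), the 1 called member of 10 vitellogenin genes; without control replicate 2 its adjusted p was 0.0618.

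Detoxification families moved in both directions. Of 85 glutathione and antioxidant genes 4 rose, among them *aip-1*, given above with the chaperones, and 1 fell (5.88% called, median log2 fold change 0.076). Of 68 cytochrome P450 genes 2 rose and 1 fell (4.41%, median -0.01). Of 63 UDP-glucuronosyltransferase genes 3 rose and 4 fell (11.1%, median 0.027). The transferase gene *gst-36* was at 82.7, 100 and 89.1 CPM in exposed and 51.3, 46.6 and 57.8 CPM in control animals, 1.75-fold higher (0.80 ± 0.12 SE on the log2 scale, edgeR adjusted p = 0.000536). *gst-26* and *gst-20* rose 1.54-fold and 1.49-fold, and the glutathione peroxidase gene *gpx-7* fell 1.53-fold (edgeR adjusted p = 0.0108, 0.0383 and 0.00829). The P450 gene *cyp-25A2* was at 12.4, 15.9 and 11 against 6.82, 5.24 and 6.57 CPM (2.10-fold, edgeR adjusted p = 0.000536), with recovery libraries at 7.16 to 9.77 CPM between the groups. *cyp-36A1* rose 1.44-fold and *cyp-29A4* fell 2.12-fold (edgeR adjusted p = 0.0276 and 0.0427).

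Of the glucuronosyltransferase genes, *ugt-13* was at 16, 18 and 17.1 CPM in exposed and 9.02, 6.93 and 8.72 CPM in control animals, a 2.06-fold rise (edgeR adjusted p = 0.00284). *ugt-48* moved the other way, at 12.9, 9.48 and 13.8 against 22.2, 22 and 17.5 CPM, a 1.71-fold fall (edgeR adjusted p = 0.00127). *ugt-12* and *ugt-44* rose 1.38-fold and 1.52-fold, and *ugt-17*, *ugt-54* and *ugt-4* fell 1.55-fold, 1.66-fold and 1.65-fold (edgeR adjusted p = 0.0278, 0.031, 0.00578, 0.0272 and 0.0464). The counts of these 3 families shrank without exposed replicate 2, to 2 antioxidant, 1 P450 and 2 glucuronosyltransferase genes. The calls of *gst-36*, *cyp-25A2*, *ugt-13* and *ugt-48* did not depend on any 1 library. Apart from *aip-1*, the other 10 genes named in the 3 families each lost their call without exposed replicate 2. All but *gpx-7* and *ugt-17* lost it also without 3 or more of the other 5 libraries, and *ugt-17* also without control replicate 1 (adjusted p up to 0.382). With the ribosomal RNA share as covariate *gst-20*, *gst-26*, *gpx-7*, *ugt-12*, *ugt-44*, *ugt-54* and *ugt-4* were not called, and with the cuticle score *gst-20*, *cyp-36A1*, *cyp-29A4* and *ugt-4*.

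Genes listed as outputs of insulin signalling gave 4 rises and no fall among 61 tested (6.56% called, median log2 fold change 0.128). All 4 were *pud* genes, of a small family clustered on chromosome V. At an unadjusted p under 0.05, 10 were higher and 5 lower, and a fit of the 6 libraries alone called 4 higher and 2 lower. *pud-3* was at 148, 203 and 130 CPM in exposed and 93.7, 75.0 and 97.0 CPM in control animals (1.80-fold, edgeR adjusted p = 0.00284). *pud-2.2* (WBGene00017490) was at 5.59, 5.94 and 4.65 against 1.48, 1.51 and 1.17 CPM, with recovery animals at 1.45, 1.04 and 1.53 CPM, and rose 3.88-fold (1.96 ± 0.39 SE on the log2 scale, edgeR adjusted p = 0.00708). A second *pud-2.2* entry (WBGene00017500) was not called, in the main fit or in any of 14 alternatives. Its log2 fold change over the alternatives was 0.528 to 0.883 (adjusted p 0.0679 to 0.444). *pud-1.2* and *pud-1.1* rose 5.56-fold and 2.66-fold (edgeR adjusted p = 0.014 and 0.0272) from levels under 1 CPM in controls. Similar copies in the cluster may share reads, so the split between the 2 *pud-2.2* entries is uncertain. *sod-3*, the mitochondrial superoxide dismutase gene often used as a reporter of the factor DAF-16, was at 4.55, 4.74 and 3.34 against 3.01, 2.90 and 2.91 CPM and was not called (1.43-fold, edgeR adjusted p = 0.094). *pud-1.2* and *pud-1.1* lost their calls without exposed replicate 2 or control replicates 1 or 2, and *pud-1.1* also without exposed replicate 1 or control replicate 3 (adjusted p up to 0.196); neither was called with the ribosomal RNA share as covariate.

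Of 47 genes of iron, haem and metal handling 2 rose and 3 fell (10.6% called; median log2 fold change 0.083). *ftn-1*, the ferritin gene of the gut, was at 1.90, 2.25 and 1.91 CPM in exposed, 2.84, 2.70 and 3.36 CPM in recovery and 4.71, 5.65 and 4.64 CPM in control animals, without overlap. It fell 2.46-fold (-1.30 ± 0.33 SE on the log2 scale, edgeR adjusted p = 0.0369). The iron exporter gene *fpn-1.1* was at 22.8, 19.7 and 21.8 against 15.2, 14.7 and 16.8 CPM (1.37-fold, edgeR adjusted p = 0.00516), and *hrg-4*, a haem transporter gene, was 2.17-fold higher, with exposed replicate 3 at 0.903 CPM beside the highest control at 0.904 CPM (edgeR adjusted p = 0.0222). *hpo-15* fell 1.40-fold and *zipt-2.1*, of the ZIP zinc transporter family, 1.31-fold (edgeR adjusted p = 0.0106 and 0.0223). The call of *ftn-1* was lost whichever of the 6 libraries was left out (adjusted p up to 0.197), and that of *fpn-1.1* without control replicate 2 (0.0629). *hpo-15*, *zipt-2.1* and *hrg-4* lost theirs without exposed replicates 1 or 2 or control replicate 2 (up to 0.173), *zipt-2.1* also without control replicate 1 and *hrg-4* without control replicate 3. The ribosomal RNA share, which did not overlap between the groups, took the list from 5 calls to 2 when fitted as a covariate: *ftn-1*, *hpo-15*, *zipt-2.1* and *hrg-4* were then not called.

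Of 29 tested genes of the response to intracellular pathogens, chiefly the *pals* family, 3 fell and none rose (10.3% called), with a median log2 fold change of -0.306, and 23 of the 29 lay below 0. The neighbouring genes *pals-24* and *pals-23* on chromosome III were at 28.4, 21.9 and 29.7 against 49.8, 45.9 and 41.6 CPM and at 20.8, 14.9 and 19.1 against 29.7, 30.8 and 27.5 CPM. They fell 1.72-fold and 1.61-fold (edgeR adjusted p = 0.00516 and 0.0072), and recovery animals, at 34 to 46.8 and 24.1 to 31.6 CPM, did not overlap the exposed. *skr-4*, of the SKP1 family of ubiquitin ligase subunits, fell 1.34-fold (edgeR adjusted p = 0.0365). *zip-1*, for a bZIP factor that drives part of this response and chosen after its values were seen, was at 11.1, 11.4 and 11.8 against 17.6, 16.4 and 16.8 CPM, a 1.48-fold fall (-0.57 ± 0.09 SE on the log2 scale, edgeR adjusted p = 0.000769). Without exposed replicate 2 none of the 3 list members was called (adjusted p up to 0.22), and *skr-4* lost its call without any 1 library. With the ribosomal RNA share as covariate 1 member was called, and *pals-23* and *skr-4* were not.

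Other defence families showed few calls. Among 158 C-type lectin genes 2 rose and 3 fell (3.16% called), and *clec-47* was at 184, 183 and 190 CPM in exposed, 162, 182 and 194 CPM in recovery and 291, 293 and 313 CPM in control animals. It fell 1.61-fold (edgeR adjusted p = 0.0179). *clec-4* fell 1.72-fold and *clec-83* 1.28-fold, whereas *clec-86* and *clec-149* rose 1.42-fold and 1.32-fold (edgeR adjusted p = 0.0111, 0.0454, 0.0164 and 0.0241). The 1 call among 113 antimicrobial genes was *thn-1*, of the thaumatin family, which fell 2.16-fold (edgeR adjusted p = 0.0292). Of 262 F-box genes 1 rose and 4 fell (1.91% called), a share near that of all genes; *fbxa-54* fell 1.70-fold (edgeR adjusted p = 0.00516). All 5 lectin calls were lost without control replicate 1 (adjusted p up to 0.248) and 1 to 5 lectin genes were called without any other single library. *thn-1* lost its call without any 1 library but control replicate 3 (up to 0.236), and *fbxa-54* without exposed replicate 2 (0.0569). None of the 5 lectin genes, nor *thn-1*, was called with the ribosomal RNA share as covariate.

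Transcription factor genes moved singly. Of 204 nuclear receptor genes 2 rose and 2 fell (1.96% called). *nhr-17* was at 49.8, 58.9 and 44.8 CPM in exposed and 33.4, 26.0 and 27.0 CPM in control animals (1.78-fold higher, edgeR adjusted p = 0.000606), and *nhr-206* at 1.56, 1.51 and 2.39 against 3.11, 4.30 and 3.16 CPM (1.92-fold lower, edgeR adjusted p = 0.00259). *nhr-6*, the homologue of the NR4A receptors, rose 1.87-fold and *nhr-156* fell 1.69-fold (edgeR adjusted p = 0.0106 and 0.0122), both lost without exposed replicate 1 or control replicate 2 (adjusted p up to 0.0871), *nhr-6* also without control replicate 3 and *nhr-156* without exposed replicate 2 or control replicate 1. *nhr-6* was not called with the ribosomal RNA share as covariate.

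A further set of genes was chosen after its values were seen, because each stayed called without any 1 library. *cnp-3* was at 39.2, 49.1 and 37.7 CPM in exposed and 21.1, 14.5 and 19.7 CPM in control animals and rose 2.27-fold (1.18 ± 0.14 SE on the log2 scale, edgeR adjusted p = 1.83e-05). The bZIP factor gene *zip-10*, known from the response to cold, was at 25.3, 27.0 and 21.8 against 11.8, 9.42 and 11 CPM (2.29-fold, edgeR adjusted p = 0.000769). *kreg-1*, regulated by the stress kinase KGB-1, was at 23.6, 25 and 23.1 against 11, 6.75 and 10.01 CPM (2.57-fold, edgeR adjusted p = 0.00128). *sdz-24*, a gene that depends on the oxidative stress factor SKN-1, was at 11.2, 18.1 and 10.1 against 5.57, 5.54 and 5.68 CPM (2.35-fold, edgeR adjusted p = 0.000188). In each of the 4 genes the groups did not overlap and the recovery mean, 25.3, 14.9, 13.3 and 7.31 CPM, lay between.

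Single genes of purine synthesis and of vitamin B12 use made small changes in opposite directions, and neither pathway was examined as a list. *atic-1* and *paic-1*, chosen after their values were seen and for enzymes of the later steps of de novo purine synthesis, were at 37.4, 40.8 and 36.2 against 30.6, 27.3 and 27.6 CPM and at 30.8, 31.9 and 27.7 against 23.3, 20.2 and 19.97 CPM. They rose 1.34-fold and 1.42-fold (edgeR adjusted p = 0.00127 and 0.0045). *metr-1*, the B12-dependent methionine synthase gene, fell 1.26-fold, from 312, 301 and 278 to 244, 215 and 248 CPM (edgeR adjusted p = 0.0118). *mmaa-1*, for the protein that loads B12 onto methylmalonyl-CoA mutase, was at 118, 115 and 121 against 152, 149 and 132 CPM and fell by 0.29 on the log2 scale (edgeR adjusted p = 0.00809). Both lost their calls without exposed replicate 2 or control replicate 1, and *metr-1* without control replicate 2 (adjusted p up to 0.104).

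Among genes of moulting and developmental time, 2 of 206 rose and none fell (0.971% called; median log2 fold change 0.111). *lin-42*, the period homologue whose level swings with each moult, was at 15.8, 14.9 and 14.7 CPM in exposed and 9.04, 9.87 and 10.7 CPM in control animals, and higher than both in recovery animals, at 20.5, 20.3 and 21.5 CPM. Its rise over control was 1.53-fold (edgeR adjusted p = 0.0308). No cuticle collagen gene of 152 was called, but 136 lay above 0, with a median log2 fold change of 0.265, 13 higher and 1 lower at an unadjusted p under 0.05 and 3 higher by DESeq2. No major sperm protein gene of 29 was called and all 29 lay below 0, with a median of -0.275, 16 at an unadjusted p under 0.05 and none called by DESeq2. In the fit that carried the cuticle score, 8 sperm protein genes were called lower. A fit of the 6 libraries alone called 8 sperm protein genes lower and 8 collagen genes higher, and a fit of the 9 F1 libraries 13 lower and 4 higher. *lin-42* lost its call with that covariate and without any 1 of the 6 libraries except control replicate 3 (adjusted p up to 0.178).

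Of 56 DNA repair genes edgeR called none in the main fit, with 3 higher and 3 lower at an unadjusted p under 0.05. DESeq2 called 1 lower, and the edgeR log2 fold changes of the 56 ran from -0.288 to 0.291. Of 34 genes of DNA damage signalling and apoptosis edgeR called none, with 3 higher at an unadjusted p under 0.05 and 2 higher by DESeq2 and in the fit of the 6 libraries alone. The CEP-1 target *egl-1* was at 2.22, 1.88 and 2.28 CPM in exposed and 1.04, 1.21 and 1.03 CPM in control animals, so every exposed library lay above every control. Its fold of 1.95 just missed the threshold (0.96 ± 0.26 SE on the log2 scale, edgeR adjusted p = 0.0569). It was called in 3 of 14 alternatives, by DESeq2 (adjusted p = 0.0181), in the edgeR fit of the 6 libraries alone (0.0142) and in that of the 9 F1 libraries (0.0186), and its adjusted p was up to 0.216 in the rest. *cep-1* itself was at 66.3, 65.6 and 64.1 against 71.8, 58.9 and 63.9 CPM (1.01-fold, edgeR adjusted p = 0.982). Meiosis genes, 38 tested, and replication and cell cycle genes, 63 tested, held no call in the main edgeR fit or by DESeq2. In each list 3 genes were at an unadjusted p under 0.05. The main fit and DESeq2 also called none of 69 respiratory chain genes, 3 at an unadjusted p under 0.05, and of 78 ribosomal protein genes, none at that level. With the ribosomal RNA share as covariate edgeR called 2 repair genes and 1 meiosis gene lower. It called 1 repair gene lower with the stricter filter and 1 higher with the cuticle score.

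**Figure D3:**
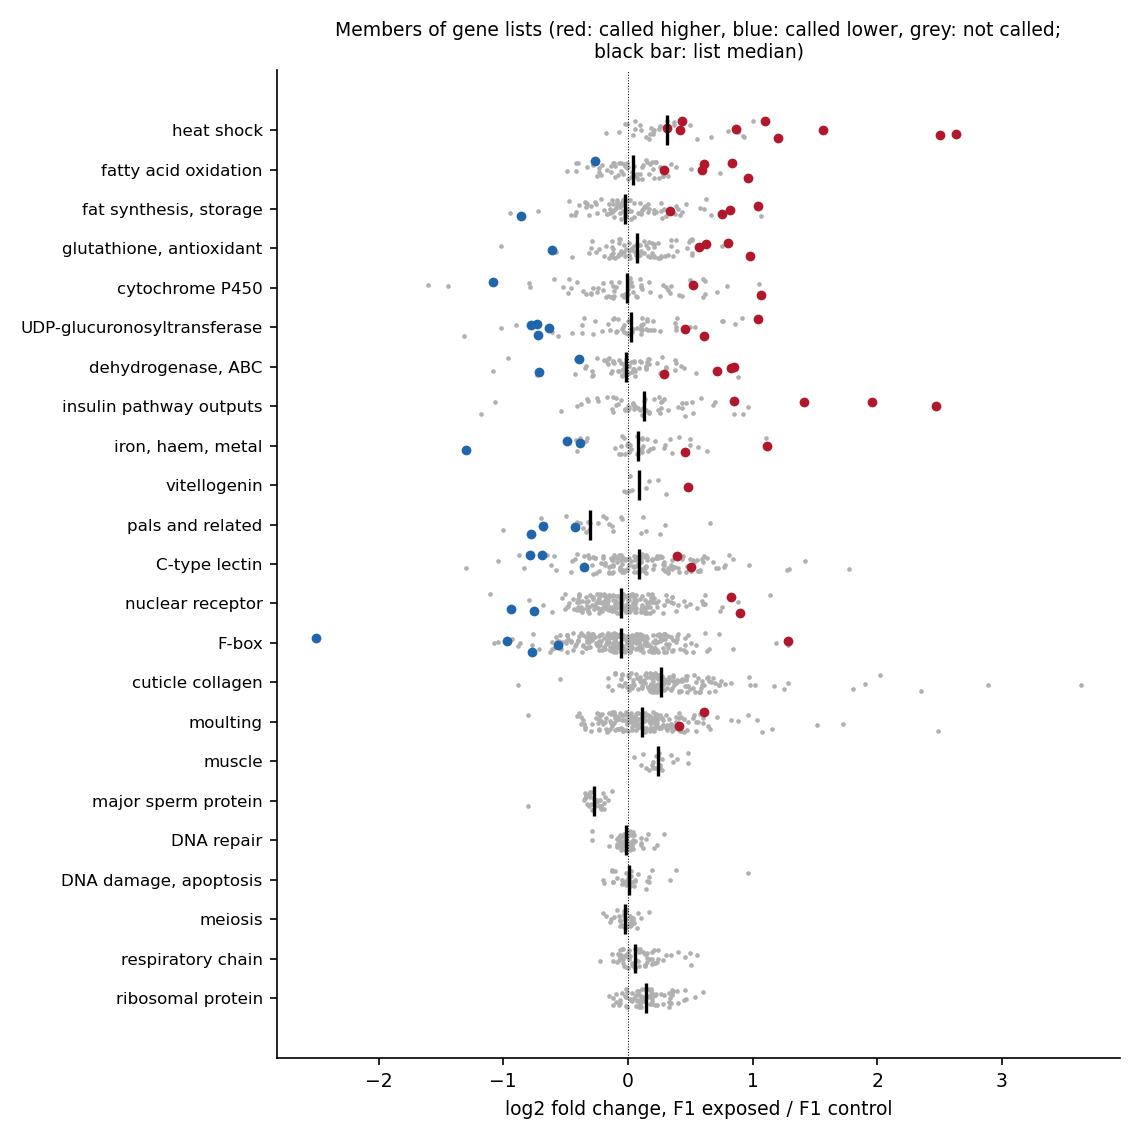
Fitted log2 fold change of F1 exposed against F1 control (x) for every tested member of 23 gene lists (y); red and blue points were called higher and lower, grey ones were not called, and the black bar is the list median. Of the heat shock members 34 of 38 lie right of 0 with 9 called, 23 of 29 intracellular pathogen response genes and all 29 sperm protein genes lie left of 0, and DNA repair genes cluster within 0.291 of 0.

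The second question was how F1 exposed animals differed from F1 recovery animals, which shared irradiated parents but were themselves unirradiated. This comparison uses the same exposed libraries as the first. It called 255 genes (1.45% of those tested), 162 higher (0.919%) and 93 lower (0.528%) in exposed animals by edgeR. *R09E10.2* and *hsp-16.48* were called here in every alternative setting that tested them, *hsp-16.48* at 5.13-fold (2.36 ± 0.45 SE on the log2 scale, edgeR adjusted p = 0.00806). *hsp-16.1* was 4.49-fold and *pud-2.2* 3.99-fold higher than in recovery animals (edgeR adjusted p = 0.0156 and 0.00796). The peroxisomal genes *acox-1.5* and *pmp-1* and the synthetase gene *acs-14* were 1.52-fold, 1.57-fold and 1.46-fold higher (edgeR adjusted p = 0.00451, 0.00407 and 0.00451). *zip-1* was 1.36-fold and *pals-23* 1.56-fold lower (edgeR adjusted p = 0.0103 and 0.0149).

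Several genes that differed from control did not pass the test against recovery. *hsp-70* and *dnj-13* were 1.39-fold and 1.13-fold higher than in recovery animals (edgeR adjusted p = 0.456 and 0.236), with recovery animals between. *fard-1*, *clec-47*, *mmaa-1* and *fat-5* were within 1.14-fold of the recovery level (edgeR adjusted p = 0.958, 0.925, 0.959 and 0.716). *scp-1* was 1.20-fold and *elo-9* 1.19-fold higher than in recovery animals (edgeR adjusted p = 0.181 and 0.447). Without exposed replicate 2 the count of calls against recovery was 26, and without recovery replicates 1, 2 and 3 it was 116, 42 and 73. Without exposed replicate 2 *hsp-16.1*, *pud-2.2*, *acox-1.5*, *pmp-1*, *acs-14*, *zip-1* and *pals-23* lost this call, and without recovery replicate 2 *hsp-16.1*, *pud-2.2*, *zip-1* and *pals-23* (adjusted p up to 0.178). *hsp-16.1*, *zip-1* and *pals-23* also lost it without recovery replicate 3, and *hsp-16.1* without recovery replicate 1.

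The third question was whether the F1 response differed from that of the other generations, by a test of the difference between the log2 fold changes themselves. F1 libraries also differed from F0 in stage markers: the cuticle score lay at 2.74 to 3.12 in F1 exposed and control libraries and at 1.65 to 1.93 in F0, and its part was not tested beyond its fit as a covariate. Against F0, 10 genes differed (0.0567% of those tested), 1 with a higher (0.00567%) and 9 with a lower (0.0511%) value in F1. The 1 higher was *nhr-6*, with a log2 fold change of 0.90 in F1 and -0.57 in F0 (edgeR adjusted p of each response 0.0106 and 0.123). Among the lower, *ugt-48* was at -0.77 in F1 and 0.28 in F0, and *clec-4* at -0.78 and 0.48. No heat shock gene was among those differing from F0, and *R09E10.2* and *hsp-16.1* had log2 fold changes of 2.19 and 2.38 in F0 beside 2.01 and 2.63 in F1. With 1 library left out the count against F0 ran from 2 to 16, and *nhr-6*, *ugt-48* and *clec-4* each lost the call without F0 exposed replicates 1 or 3, F0 control replicates 1 or 2 or F1 control replicate 2 (adjusted p up to 0.228).

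Against F2, 12 genes differed (0.0681%), 10 higher (0.0567%) and 2 lower (0.0113%) in F1. *lin-42* had a log2 fold change of 0.61 in F1 and -0.77 in F2, and *hpo-15* -0.49 in F1 and 0.50 in F2, and both were called with any 1 library left out. In the fit that carried the cuticle score no gene differed from F2, and *lin-42* and *hpo-15* had adjusted p of 0.283 and 0.188. With DESeq2 size factors the split was 10 higher and 8 lower. Without F2 control replicate 3 the count was 911, with 450 higher and 461 lower, and without any other library it was 2 to 16.

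Against F3, 127 genes differed (0.72%), 46 higher (0.261%) and 81 lower (0.46%) in F1. The genes *ugt-13*, *zip-10*, *sdz-24* and *nhr-6* had log2 fold changes of 1.04, 1.20, 1.24 and 0.90 in F1 and of -0.36, -0.01, -0.10 and -0.30 in F3. *hpo-15*, *ugt-48* and *btb-9* went the other way, at -0.49, -0.77 and -0.90 in F1 and 0.69, 0.45 and 0.93 in F3. *hpo-15* kept this call in 20 of 20 alternatives, and *ugt-13*, *ugt-48*, *sdz-24* and *btb-9* in 19, lost in a fit of the compared groups alone (adjusted p up to 0.19). *zip-10* and *nhr-6* lost it without F1 exposed replicates 1 or 2, F1 control replicates 2 or 3 or F3 exposed replicates 2 or 3 (adjusted p up to 0.304). *hsp-16.1* and *pud-2.2* had log2 fold changes of 0.70 and 0.00 in F3, and their differences from F1 did not pass the test. The count ran from 40 to 234 with 1 library left out, the lowest without F1 exposed replicate 2 or F3 exposed replicate 2 and the highest without F3 exposed replicate 1.

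**Figure D4:**
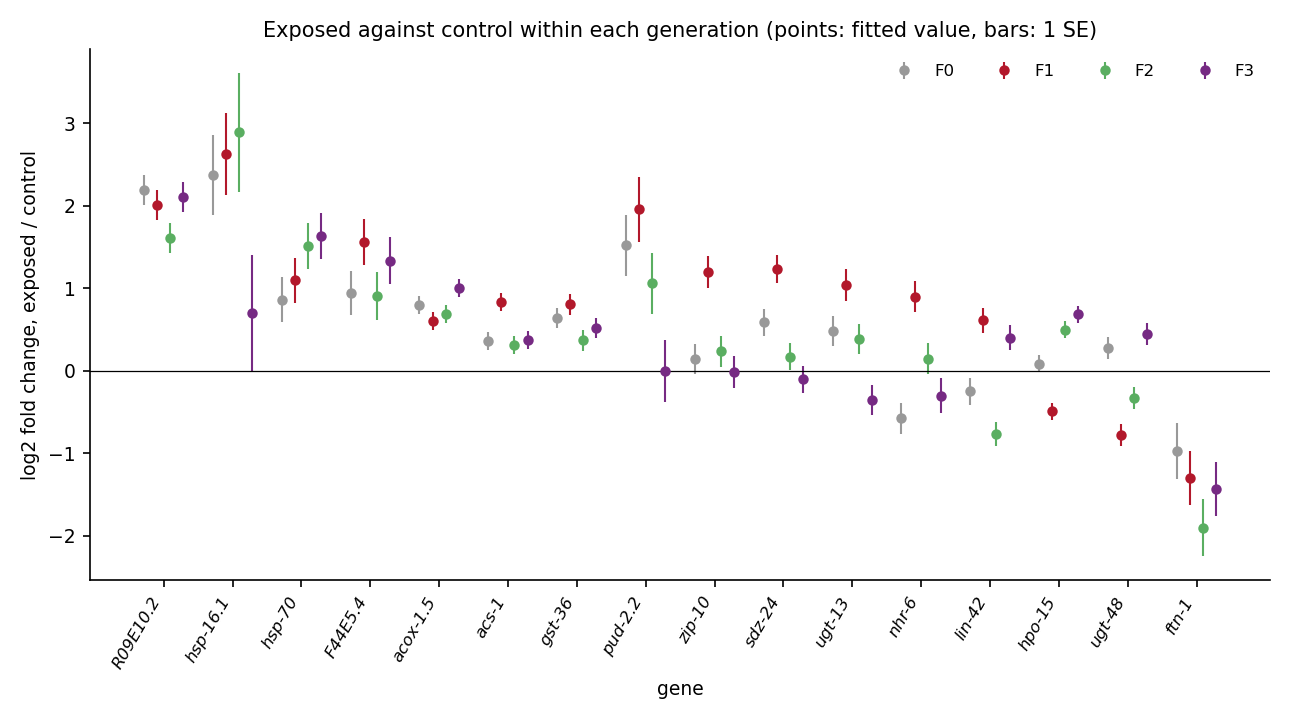
Fitted log2 fold change of exposed against control animals (y, bars 1 SE) for 16 genes in F0 (grey), F1 (red), F2 (green) and F3 (purple), each from its own 3 exposed and 3 control libraries. *R09E10.2* lies between 1.61 and 2.19 in each generation, while the fitted values of *zip-10*, *sdz-24*, *ugt-13* and *nhr-6* are highest in F1. These genes were named from the F1 calls, which favours a large value there. Their differences passed the test against F3, that of *nhr-6* also against F0, and none against F2.

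**Figure D5:**
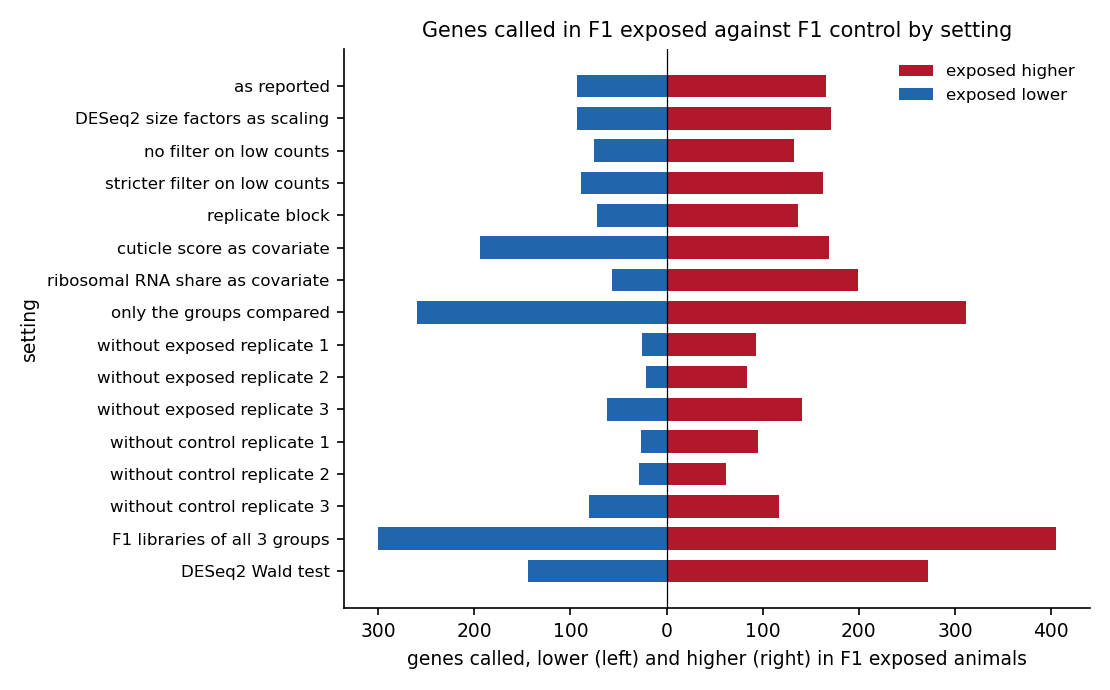
Number of genes called higher (red, right) and lower (blue, left) in F1 exposed against F1 control animals under each setting, with the reported fit at the top. The reported 166 and 93 fall to 62 and 29 without control replicate 2 and rise to 405 and 300 in a fit of the 9 F1 libraries alone.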

How the data were processed

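Counts per gene of whole animals were analysed. Per the labels' protocols, strand-specific paired-end libraries of total RNA were sequenced on an Illumina instrument. STAR and DESeq2 1.22.2 are named in the submitters' processing notes; the build and the counting program were not given in the sources used here. Gene counts as deposited were whole numbers without normalisation for 46778 identifiers, 46603 of them found in the WBcel235 annotation, from which positions and 43818 symbols were taken.

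The test was edgeR 4.0.16's robust quasi-likelihood F-test with TMM scaling, in R 4.3.3. A single model of all 33 libraries, with a coefficient for each of 11 groups and 22 residual degrees of freedom, pools the spread over the study, with a common biological coefficient of variation of 0.119. The filter filterByExpr kept 17627 genes, and genes not tested held at most 0.0267% of a library's counts. A call is an adjusted p under 0.05 (Benjamini-Hochberg) across those genes. CPM are scaled with the TMM factors, folds come from the fit and depend on edgeR's prior count near 0, and SE was calculated back from the fold and the F statistic. Total counts of 28.1 to 40.6 M limit the precision.

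The alternatives were other scaling (DESeq2 size factors), other filters, DESeq2 1.42.0, fits of fewer groups, each library left out in turn, the replicate number as a block, and a cuticle score or the ribosomal RNA share as a covariate. The fit of 9 F1 libraries and the list counts under alternatives were chosen after the data were seen. The code was tested on simulated counts. The libraries and 43 gene lists were chosen with earlier results of these data known. Genes were eligible if called, without overlap between groups, at 1 CPM or more in the higher group and with a symbol. Of these the rule named the 15 largest changes and 10 highest levels each way and up to 4 per list. Added whatever their p were all heat shock genes, *egl-1*, *ced-13*, *cep-1*, *R09E10.2*, *ftn-1*, *sod-3*, *hsp-4*, *hsp-6* and *hsp-60*. The 5 largest changes each way of the other comparisons were added too. No value of *ced-13* is given here. The text names fewer; beyond the rule it names all members of a list with few calls (*dhs-28*, *gst-20*, *ugt-12*, *ugt-44*, *ugt-4*, *pud-1.1*, *hrg-4*), a choice made after their values were seen. Chi-square over genes between replicates was at least 15.6 per degree of freedom, so no library was a copy of another.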

Additional observations from a re-analysis of the deposited data

Results flagged for a closer look

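The values below are the log2 difference between the exposed against control change in F1 and that in another generation, for genes of the report in which edgeR's test of the difference passed.

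Against F0 the difference was 1.48 for *nhr-6*, -1.06 for *ugt-48*, -1.26 for *clec-4*, -0.88 for the chemoreceptor gene *srh-237*, -0.60 for the peroxisomal transporter gene *pmp-5* and -0.76 for the amino acid transporter gene *aat-2*. This call was kept in 9 of 20 alternatives for *pmp-5*, 8 for *aat-2* and 19 for *srh-237* (adjusted p up to 0.22). *aat-2* fell 1.41-fold in F1 (edgeR adjusted p = 0.00701) and lost that call without exposed or control replicate 1 (adjusted p up to 0.0752).

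Against F2 the difference was 1.38 for *lin-42* and -0.99 for *hpo-15*.

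Against F3 the difference was 1.40 for *ugt-13*, 1.34 for *sdz-24*, 1.21 for *zip-10*, 1.20 for *nhr-6*, 1.16 for *oac-31* and 0.49 for *hsp-4*, which was not called in F1. It was -1.84 for *btb-9*, -1.22 for *ugt-48*, -1.17 for *hpo-15*, -1.15 for *nhr-206*, -0.98 for *fbxa-54*, -0.78 for *srh-237* and -0.62 for *aat-2*. The call against F3 was kept in 6 of 20 alternatives for *oac-31*, 8 for *aat-2*, 11 for *hsp-4*, 13 for *fbxa-54* and 19 for *srh-237*. For *nhr-206* it was kept in 10 of 19. The adjusted p of these genes was up to 0.382.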

How the results depend on the processing

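The count for F1 exposed against control stayed within 1.5 times of 259 with DESeq2 size factors (264), no filter (208), a stricter filter (252), the cuticle score (363; 169 higher, 194 lower) and the ribosomal RNA share (256; 199 higher, 57 lower) as covariates. It was 416 with DESeq2, 572 in a fit of the 6 libraries alone and 705 in a fit of the 9 F1 libraries, and 91 to 203 with 1 library left out. Of the 259 calls, 149 remained with the ribosomal share, 203 with the cuticle score, 257 with DESeq2 and 59 in every alternative, which leaves out genes that the stricter filter removes. For exposed against recovery the count of 255 became 1050 with the compared groups alone, 704 with the 9 F1 libraries and 498 with DESeq2, and 26 to 213 with 1 library left out. The difference from F0 (10) became 2 with the ribosomal share, 77 with the compared groups and 53 with DESeq2, and 2 to 16 with 1 library left out. The difference from F2 (12) became 18 with DESeq2 size factors (10 higher, 8 lower), 96 with the stricter filter (30 higher, 66 lower), 0 with the cuticle score, 254 with the ribosomal share (183 higher, 71 lower), 161 with the compared groups and 403 with DESeq2 (171 higher, 232 lower), and 2 to 911 with 1 library left out (450 higher, 461 lower at 911). The difference from F3 (127) became 201 with the ribosomal share, 8 with the compared groups and 218 with DESeq2, and 40 to 234 with 1 library left out. The cause of these changes was not tested. None of the 83 called genes named changed sign, whereas *cep-1* and *hsf-1*, which were not called, lay on both sides of 0. The moulting list's 2 rises became 1 fall with the cuticle score, and the antimicrobial list's 1 fall became 1 rise with the ribosomal share or the replicate block.

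Replicate numbers did not pair the F1 samples: deviations of exposed and control libraries of the same number correlated at -0.055, -0.0997 and -0.0742. In F3 the same correlations were 0.197, 0.333 and -0.0738, so a pairing of some F3 libraries is not excluded. With the replicate number as a block the 5 counts, in the order above, were 209, 181, 0, 2 and 59. With 3 libraries a group and these depths, genes near 1 CPM rest on few counts, and a gene that missed the threshold is not shown to be equal between groups. The planned count of promoter motifs was not run.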

Other observations

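Of 87 long intergenic non-coding RNA genes tested 2 rose and none fell (2.3% called), a share near the 1.47% of all genes. The count was 0 without a filter on low counts, 0 with the cuticle score as covariate and 1 with the replicate number as a block. *linc-142* was at 2.36, 3.03 and 2.10 CPM in exposed and 0.696, 0.678 and 1.09 CPM in control animals (3.02-fold, edgeR adjusted p = 0.0267), and *linc-72* at 21.3, 18.9 and 15.8 against 10.7, 8.37 and 8.47 CPM (2.03-fold, edgeR adjusted p = 0.0193). The groups did not overlap in either gene, and both calls were lost without exposed replicates 1 or 2 or control replicate 2 (adjusted p up to 0.167), *linc-142* also without control replicate 1 and *linc-72* without control replicate 3. The gut peptide transporter gene *pept-1* was at 51.0, 66.1 and 42.3 against 35.4, 29.7 and 29.0 CPM and rose 1.70-fold (edgeR adjusted p = 0.00925), a call lost without exposed replicate 2 or control replicates 2 or 3 (adjusted p up to 0.089) or with the ribosomal RNA share as covariate. *asic-2*, for a sodium channel of the DEG/ENaC family, was at 4.55, 4.45 and 5.34 against 1.02, 1.66 and 2.63 CPM (2.72-fold, edgeR adjusted p = 0.00809), with recovery libraries at 3.24, 3.34 and 3.21 CPM; without control replicates 1 or 2 it was not called (adjusted p up to 0.0936).

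Some changes were near one another in recovery and exposed animals. The chemoreceptor gene *srh-237* was at 12.7, 13.5 and 12.8 CPM in exposed, 13.7, 13.9 and 14.4 CPM in recovery and 20.6, 20.6 and 19.4 CPM in control animals. It fell 1.55-fold against control (edgeR adjusted p = 0.000536) and was 1.08-fold lower than in recovery animals (edgeR adjusted p = 0.664).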
